A study of Equus caballus with 17 samples.

Results

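Among the small RNAs counted in horse testis and sperm, 1459 identifiers stood for predicted hairpins, short genome stretches whose RNA can fold back on itself, listed with letters and a position but with no miRNA name. Of these, 761 shared no run of 14 identical bases with any other predicted hairpin, read as written, and these unshared hairpins are described here. The rule that chose them uses sequence and no difference between samples, but it was set with earlier results of these data known. Another 695 hairpins shared such a run, and 3 more were left out by name. The annotated entries of the table, 274 mature miRNAs, carry no letters, so overlap of an unshared hairpin with an annotated miRNA was not examined. Looking for shared runs on both strands leaves 690 hairpins.

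Small RNA came from Equus caballus testis labelled Infant (n = 3), Pre-puber (n = 3), Puber (n = 3) and Adult (n = 4), and from Sperm (n = 4), to follow small RNAs over spermatogenesis. The labels name no treatment, strain or age in numbers, and do not say that replicates are separate animals, so the p-values below measure only the spread between these libraries, which may be technical. Infant 31a and 31b share a title number, as do Pre-puber 3a and 3b. Sperm differed from testis in tissue and also in the handling of its RNA, which had a shorter DNase step followed by phenol:chloroform, so tissue and handling cannot be told apart. Testis libraries hold all cell types of the organ, and fewer cells of a type and less RNA per cell cannot be told apart.

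A miRNA is cut from a hairpin in successive steps, first in the nucleus by Drosha and then in the cytoplasm by Dicer, and the mature strand guides Argonaute proteins to target RNAs. A list of predicted hairpins usually mixes miRNA genes that an annotation lacks with pieces of other transcripts that happen to fold. In testis, germ cells that enter and pass meiosis make large amounts of small RNAs, piRNAs and the miR-34/449 family among them, and mature sperm carry miRNAs and fragments of tRNAs and rRNAs.

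Sequences are shown for a few hairpins on EquCab3.0, the build named in the submitters' processing notes, with positions as the deposited table writes them. In that table the end minus the start equals the length of the letters, so by a count from 1 one of the bounds lies a base outside the stretch. Capitals mark bases paired in the minimum free energy structure of RNAfold. Which genes hold these positions was not analysed here, and the table gives the hairpins no miRNA name. The first 3 were near 0 in Infant and higher in Adult, and are shown because their levels are followed through the stages below. They lie at chr21:15197216-15197284 (plus, 21_2297470), chr9:85449731-85449787 (plus, 9_5044670) and chrX:91647818-91647874 (minus, X_5269294). Their folding energies were -29.4, -22.7 and -13.8 kcal/mol per 100 bases, but other large rises had firmer folds, with -39.8 for 29_3211085 and -38.7 for 13_692509.

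21_2297470: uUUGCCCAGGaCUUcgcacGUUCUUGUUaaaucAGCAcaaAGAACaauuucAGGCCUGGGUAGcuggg
9_5044670: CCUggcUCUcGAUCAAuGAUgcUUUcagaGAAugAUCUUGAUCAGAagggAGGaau
X_5269294: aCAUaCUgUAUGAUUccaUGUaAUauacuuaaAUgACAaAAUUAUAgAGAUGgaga

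The last set holds 4 of the 6 named rises in Sperm against Adult, those with the highest GC content, at 91.3% of bases in 5_4176978, 90% in 4_3986438, 86.8% in 6_4266980 and 71.7% in 14_801184, while the other 2, 26_2972641 and 2_3474571, were at 58.8% and 63.0%. They lie at chr5:19044448-19044494 (minus), chr4:35741671-35741731 (minus), chr6:7831704-7831757 (plus) and chr14:23126601-23126647 (plus). All 6 had enough counts to be tested against Adult only through Sperm, so their direction against Adult was fixed in advance.

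5_4176978: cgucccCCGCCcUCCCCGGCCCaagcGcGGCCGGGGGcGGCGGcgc
4_3986438: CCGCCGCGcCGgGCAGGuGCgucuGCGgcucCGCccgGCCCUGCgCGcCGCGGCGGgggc
6_4266980: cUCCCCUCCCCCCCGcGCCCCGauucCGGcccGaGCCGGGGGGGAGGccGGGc
14_801184: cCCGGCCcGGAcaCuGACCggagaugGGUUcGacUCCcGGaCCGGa

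The 761 unshared hairpins were 36 to 111 bases long, with a median of 61. Their median GC content was 54.5% and their median folding energy -34.9 kcal/mol per 100 bases, against 50.5% and -30.8 in the 695 hairpins with shared sequence. A single stem-loop was the predicted fold of 723 (95.0%), and 660 of the 695 others (95.0%) folded so too. The first base of the whole hairpin as written was u in 350 (46.0%), and in 243 of the others (35.0%). The plus strand held 383 and the minus strand 378, and chromosome 1 had the most, with 59. Chromosome X held 19. These are descriptions with no test.

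Counts were spread very unevenly over the unshared hairpins. The median total over all 17 libraries was 20 counts, and 10 hairpins had none. Of the 2377728 counts, the 3 leading hairpins held 85.9%, the first 10 held 94.4% and the first 42 held 97.6%. Hairpins with shared sequence had a median total of 737 counts. On the side of the threshold, the 95 unshared hairpins whose longest shared run was 13 bases had a median total of 24 counts, while the 56 hairpins with a run of 14, just outside, had a median of 30.5.

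Total counts of a library ranged from 12648994 to 16681073 for Infant, 10965454 to 17929886 for Pre-puber, 5326095 to 7859177 for Puber, 2864295 to 6662914 for Adult and 1935954 to 3161114 for Sperm. Levels below are CPM, the count divided by the annotated miRNA counts of the library, TMM-scaled and put on the usual CPM scale, and say nothing of absolute amounts. Annotated germ cell markers (miR-34b-5p, miR-34c and miR-449a, all 3 of the list found) summed to 16.5 to 45.6 CPM in Infant, 41.1 in Pre-puber 3a, 74.0 in Pre-puber 3b, 2607 in Pre-puber 14, 11500 to 20970 in Puber, 35050 to 52860 in Adult and 89320 to 231600 in Sperm. Pre-puber 14 thus stood apart from both other Pre-puber libraries. The 2 of 5 stroma and smooth muscle markers found (miR-145 and miR-199b-5p) summed to 8485 to 12180 CPM in Infant, 7592 to 14600 in Pre-puber, 9088 to 12740 in Puber, 5434 to 8747 in Adult and 18.3 to 56.9 in Sperm, so they were lower in Adult than in most Infant libraries, and endothelial miR-126-5p (1 of 2) to 131 to 640 in testis and 25.3 to 43.1 in Sperm. The 3 of 5 blood markers found summed to 512 to 1507 CPM in testis but for Infant 30 (5502) and Adult 33 (4106), and to 913 to 3285 in Sperm. The part of these markers in the results below was not tested. The gonadal marker miR-202 and the striated muscle markers were not found among the annotated entries.

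More unshared hairpins were detected in older testis although its libraries were shallower. Hairpins with at least 5 counts numbered 61, 72 and 83 in the Infant libraries, 157, 93 and 181 in Pre-puber 3a, 3b and 14, 187, 190 and 215 in Puber, 208, 145, 206 and 207 in Adult 13, 20, 33 and 4, and 190, 150, 155 and 134 in Sperm. The Infant libraries were all below those of every other group, and Pre-puber 3b was the nearest. As a share of all counts, the unshared hairpins made up 0.959 ± 0.174% in Infant (SD, n = 3), 1.04 ± 0.229% in Pre-puber testis (n = 3), 1.12 ± 0.0883% in Puber (n = 3) and 1.33 ± 0.254% in Adult testis (n = 4), beside 10.6 ± 5.601% for Sperm (n = 4). The Sperm share was 13.9%, 4.41%, 7.47% and 16.5% in Sperm 1 to 4, each far above the highest testis library at 1.49%. Without the 3 leading hairpins the share was 0.0876 ± 0.0263% in Infant, 0.156 ± 0.056% in Pre-puber testis, 0.286 ± 0.118% in Puber, 0.472 ± 0.138% in Adult and 0.889 ± 0.285% in Sperm. The mean of the remainder was higher in each later group.

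**Figure D1:**
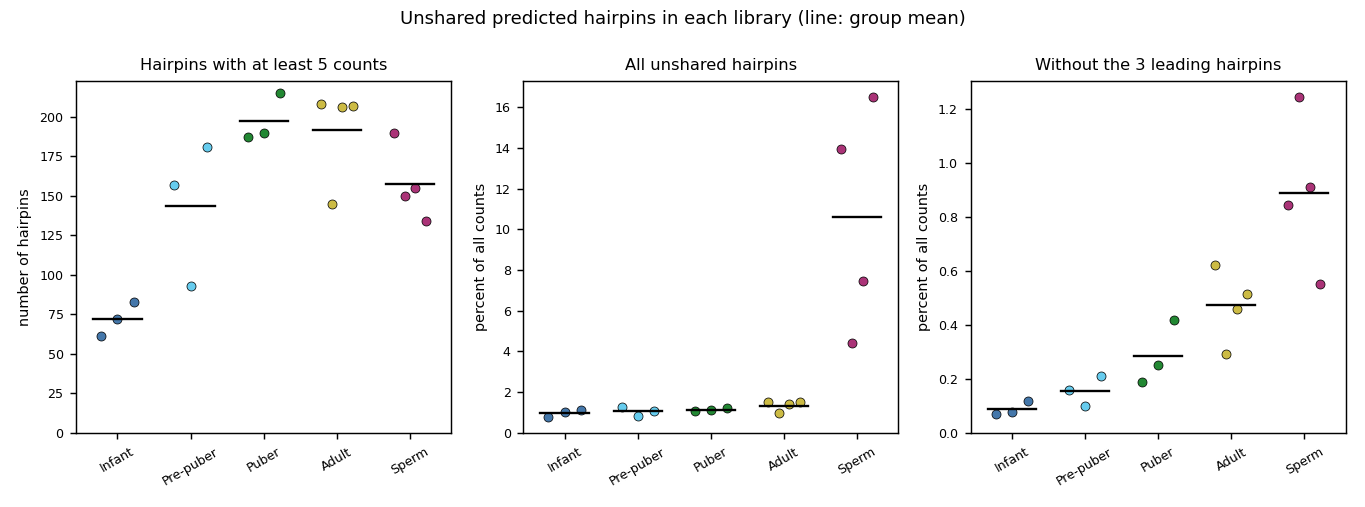
Each point is 1 library and each line a group mean: the number of unshared hairpins with at least 5 counts (left), and the percent of all counts held by all of them (middle) and by all but the 3 leading ones (right). The Infant libraries hold 61 to 83 detected hairpins, fewer than any other library, and the Sperm libraries hold 4.41% to 16.5% of their counts in unshared hairpins.

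2_3478602 was high in Sperm and lower in Adult than in Infant. Its libraries were at 1435, 1787 and 1794 CPM in Infant, 1878, 1517 and 1097 in Pre-puber testis, 1202, 922 and 797 in Puber, 750, 708, 594 and 671 in Adult, and 11300, 3177, 9490 and 19430 in Sperm (libraries in the order Infant 31a, 31b and 30, Pre-puber 3a, 3b and 14, Puber 10, 11 and 19, Adult 13, 20, 33 and 4, and Sperm 1 to 4, here and below). Sperm was 15.9-fold higher than Adult (log2 3.99 ± 0.50, adjusted p = 3.97e-07), and Adult was lower than Infant at log2 -1.297 ± 0.297 (adjusted p = 0.000943), in both cases with no overlap. Sperm 2 was the lowest and Sperm 4 the highest of the Sperm libraries. Folds are given as log2 with their SE, and these and all adjusted p-values below come from edgeR's quasi-likelihood test with Benjamini-Hochberg adjustment over all entries tested, called at 0.05.

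X_5285926 rose from Infant to Pre-puber and to Adult, and was higher again in Sperm. Its level was 0.934, 1.59 and 1.17 CPM in Infant, 20.7, 14.5 and 131.5 in Pre-puber 3a, 3b and 14, 74.0, 166 and 208 in Puber, 518, 315, 647 and 329 in Adult, and 2879, 7935, 4054 and 3583 in Sperm. It gave the smallest p over the testis stages (adjusted p = 7.29e-05), with 30 counts in Infant against 10326 in Adult, 360-fold higher in the fit (log2 8.49 ± 1.01, adjusted p = 1.42e-05). From Infant to Pre-puber it was 44.2-fold higher (log2 5.47 ± 0.89, adjusted p = 0.000559), or 3.81 on the log2 scale without Pre-puber 14, still called. Sperm was 10.2-fold above Adult (adjusted p = 2.46e-06). Adult was not called against Puber (log2 1.60 ± 0.71, adjusted p = 0.842) although the libraries did not overlap. This hairpin lies on chromosome X, as do X_5273545 and X_5208977.

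Of the other leading hairpins, 24_2720473 was at 41.1, 47.3 and 111 CPM in Infant, 96.2, 109 and 169 in Pre-puber testis, 208, 149 and 162 in Puber, 304, 165, 133 and 226 in Adult, and 3190, 3004, 3847 and 573 in Sperm. Sperm 4 was the lowest of the Sperm libraries but above every testis library, and Sperm was 12.8-fold higher than Adult (log2 3.68 ± 0.56, adjusted p = 5.63e-06). Adult was 3.11-fold higher than Infant (log2 1.64 ± 0.52, adjusted p = 0.00848; log2 2.23 without Infant 30), but lower at log2 -1.34 when scaling used all entries (adjusted p = 0.0287). By contrast 13_678597 passed in no comparison: its group means were 502 ± 31.1, 566 ± 251, 502 ± 203, 370 ± 159 and 358 ± 197 CPM from Infant to Sperm. X_5273545 was abundant in testis and nearly absent from Sperm. Its testis libraries ranged from 128 CPM in Puber 11 to 485 in Infant 31b, with Infant at 484, 485 and 481, and its Sperm libraries were at 6.01, 13.7, 5.83 and 4.31 CPM. Sperm was lower than Adult at log2 -5.49 ± 0.63 (44.8-fold, adjusted p = 9.61e-08), and no stage comparison passed.

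26_2972641 was a Sperm hairpin: 1700, 1889, 3525 and 1038 CPM in Sperm, at most 2.04 CPM in any testis library but Infant 30, where it was at 12.5. Over the groups, 10969 counts in Sperm stood against 21 in Adult, a fitted difference of 2029-fold (log2 10.99 ± 0.87, adjusted p = 4.56e-10). With Adult this low, 26_2972641 could be tested against Adult only through its Sperm counts. Its direction was thus fixed in advance, and the adjusted p-value is no support for it. X_5208977 was at 1.41 to 11.3 CPM in testis and at 688, 161, 1504 and 1050 in Sperm, 102-fold above Adult (log2 6.67 ± 0.70, adjusted p = 2.64e-08). It also stood 3.88-fold higher in Adult than in Infant (log2 1.95 ± 0.68, adjusted p = 0.0146), but at -0.69 when scaling used all entries (adjusted p = 0.292). 1_2067736 was at 71.6, 86.6 and 78.2 CPM in Infant, below all other libraries, and at 177, 99.1 and 413 in Pre-puber testis, 319, 213 and 284 in Puber, 275, 186, 350 and 226 in Adult and 200, 123, 307 and 165 in Sperm. Adult was 3.29-fold higher than Infant (log2 1.72 ± 0.51, adjusted p = 0.00559), and this too turned under scaling over all entries (-1.01, adjusted p = 0.0591).

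**Figure D2:**
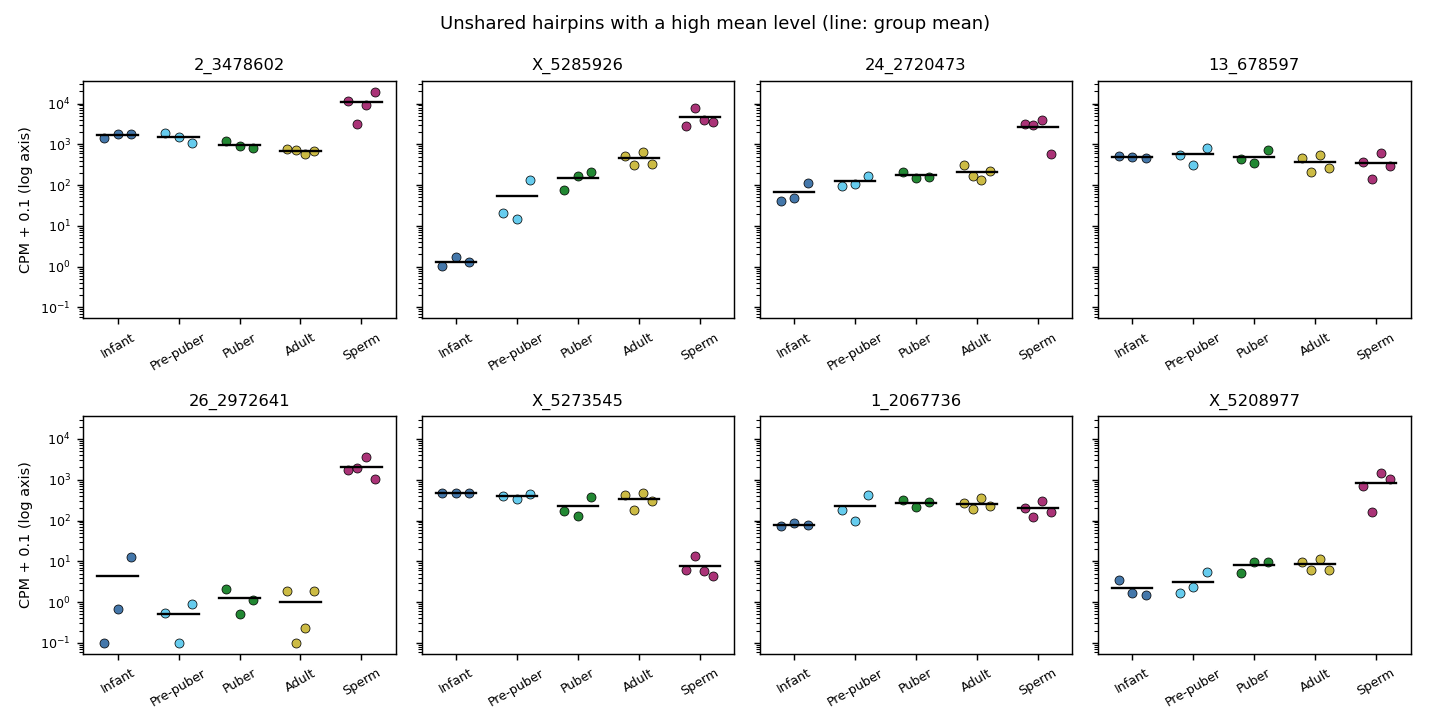
Level of 8 of the 10 unshared hairpins with the highest mean of the 5 group means, in CPM plus 0.1 on a log axis; each point is 1 library and each line a group mean. 2_3478602 reaches 3177 to 19430 CPM in Sperm, X_5273545 is lowest in Sperm, and X_5285926 climbs from a mean of 1.23 CPM in Infant to 4613 CPM in Sperm.

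The testis stages were compared over the hairpins with enough counts. Of the 761, 182 passed the filter on low counts in the testis fit and 115 in the fit of Sperm and Adult, 204 in either, while 557 were never tested. Hairpins that pass only through the group where they are high had to differ, so the counts below describe the hairpins tested and not all 761. Over the stages 147 of 182 changed (80.8%), against 84.7% of all 895 entries tested, a share near that of all entries. Of these 147, 111 had their highest mean in Adult, 29 in Puber, 3 in Pre-puber and 4 in Infant. The stage of the highest mean was not counted over all entries, of which 78.2% were called higher in Adult than in Infant. A peak in Adult is thus not shown to be particular to the unshared hairpins.

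From Infant to Adult, 147 of 182 changed (80.8%, against 85.1% of all entries tested). Of them 140 rose (76.9%, against 78.2% of all entries) and 7 fell (3.85%, against 6.93%). Adult and Infant did not overlap for 143 (78.6%), against 83.9% of all entries. The median fitted log2 fold change was 7.11, beside 7.28 over all entries tested. Infant had no count at all for 92 of these hairpins, and with those set to their lower bound the median was 4.68. A fitted fold against a group at 0 depends on the prior count, so lower bounds are given for such hairpins, against 3 counts over the group. The split depends on the scaling: with factors from all entries, 92 were higher and 60 lower in Adult of 190 tested (91.8% of all entries called). The median of all entries moved from 7.28 to 4.62 (log2).

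The largest rises were hairpins with no count in the 3 Infant libraries. They passed the filter on low counts through later groups, which fixed their direction in advance. The adjusted p-values and the lack of overlap in this paragraph are thus no support for it. 21_2297470 was at 0.124, 0 and 12.1 CPM in libraries 3a, 3b and 14 of Pre-puber, at 29.1, 65.9 and 110 in Puber, and at 375, 63.3, 162 and 287 in Adult. Its 5050 Adult counts put it at least 1861-fold higher than Infant (adjusted p = 0.000354), and the 4 Adult and 3 Infant libraries did not overlap. 9_5044670 was seen in only 1 Pre-puber library, Pre-puber 14 at 5.77 CPM, and was at 61.0, 67.5 and 45.7 in Puber and 93.1, 62.1, 23.9 and 60.4 in Adult, at least 433-fold higher (adjusted p = 0.000617). 29_3211085 was uneven over Adult: Adult 4 was at 286.6 CPM and Adult 13, 20 and 33 at 23.0, 11.5 and 25.6. It was at least 830-fold higher than Infant (adjusted p = 0.000427), with a fitted log2 fold of 12.30 that became 10.20 without Adult 4. 10_163723 (1469 Adult counts), 13_692509 (1226) and 12_477608 (954) were at least 541-, 452- and 352-fold higher, and the lowest Adult libraries of these were at 44.0, 26.8 and 23.0 CPM. The last reached 132 CPM in Adult 20, and its fitted log2 fold was 11.71, or 10.98 without that library.

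5 further hairpins had p-values over the stages among the smallest. 21_2319212 was at 0 in Infant, at 0.111 CPM in Pre-puber 14 and 0 in both other Pre-puber libraries, at 2.41, 12.1 and 13.7 in Puber and at 31.0, 15.8, 12.9 and 19.8 in Adult (adjusted p = 8.31e-05 over the stages). 1_2104817, 2_3494385 and 29_3197247 were also at 0 in Infant and at most at 0.222 CPM in Pre-puber testis, and stood at least 97.3-, 55.7- and 67.45-fold higher in Adult. For 5_4237687, 3 counts in Infant stood against 861 in Adult, a ratio of 317 (95% exact counting interval 108 to 1542). In each of these 5 the Puber libraries lay above all Pre-puber libraries, and the libraries of Adult above all of Infant. Infant was at or near 0 in these 5 too, so they passed the filter through later groups. Their direction against Infant was thus fixed in advance.

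**Figure D3:**
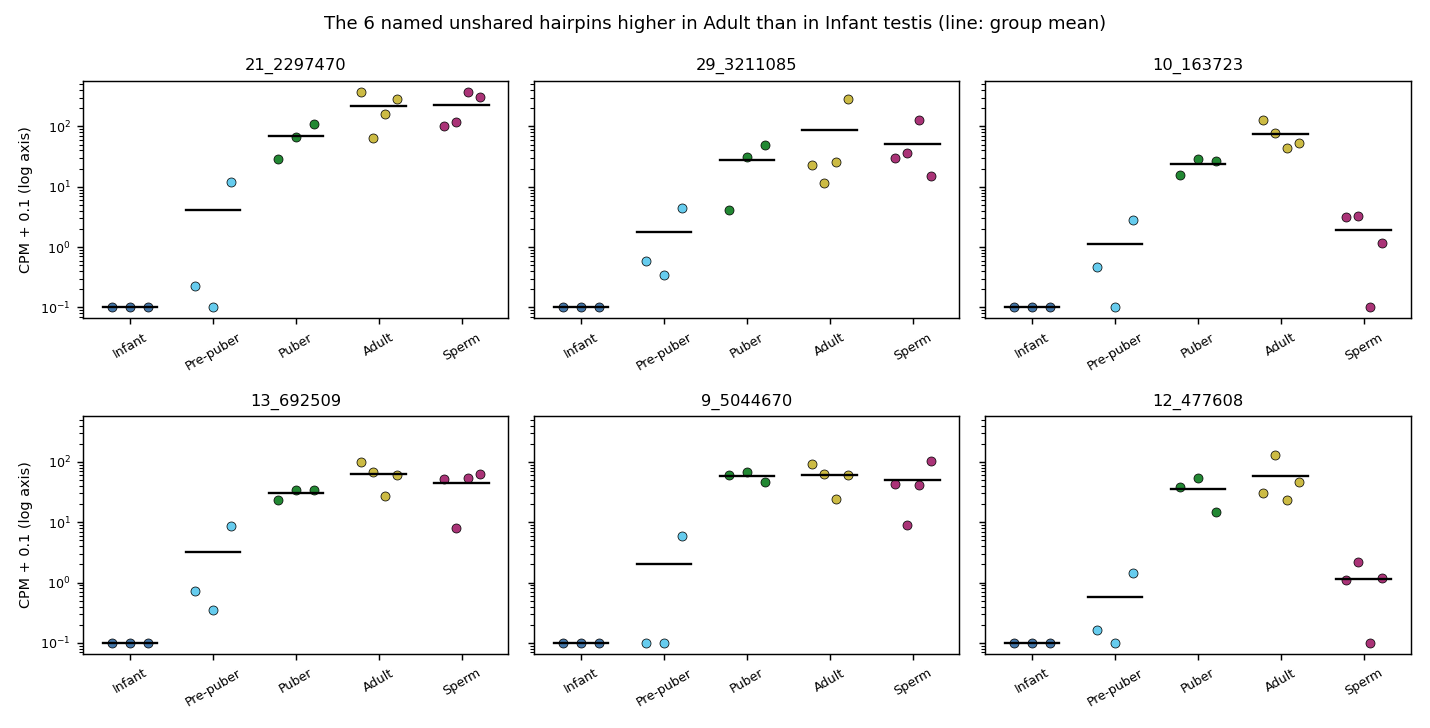
Level of 6 unshared hairpins with the largest rises from Infant to Adult, in CPM plus 0.1 on a log axis; each point is 1 library and each line a group mean. All Infant libraries are at 0, Pre-puber 14 lies above both other Pre-puber libraries, and Adult 4 stands alone at 286.6 CPM for 29_3211085.

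The 7 that fell from Infant to Adult had no overlap between their libraries, and they include 2_3478602, 8_4845321, 7_4602773, 24_2784784, 22_2449401 and 15_1082018. 8_4845321, with the letters of the hairpin known in other mammals as miR-1306 (from general knowledge, not compared with a reference), which lies inside the DGCR8 gene in human and mouse, was at 51.9, 56.1 and 76.0 CPM in Infant, 47.2, 32.3 and 7.88 in Pre-puber testis, 26.9, 38.7 and 40.6 in Puber and 23.8, 7.52, 19.0 and 11.6 in Adult. DGCR8 is the partner of Drosha. Adult was lower at log2 -1.98 ± 0.67 (3.94-fold, adjusted p = 0.0128), but in Sperm it was at 110, 16.3, 367 and 337 CPM, 13.3-fold above Adult (adjusted p = 0.000161) with overlap through Sperm 2. 24_2784784 was at 2.65, 3.41 and 6.22 CPM in Infant, at most at 0.794 in Pre-puber and Puber and at 0 in every Adult and Sperm library. 22_2449401 and 15_1082018 were called at low levels, with at most 10.1 and 8.33 CPM in a library. Both were chosen for mention after their values were seen, as was 24_2784784.

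From Infant to Pre-puber the number of calls moved most with 1 library, Pre-puber 14. Of 182 hairpins, 71 were called (39%, against 57.4% of all entries), 69 higher (37.9%, against 54.2%) and 2 lower (1.1%, against 3.24%), with a median log2 fold of 3.11, or 1.59 at the lower bounds. Among the 182 hairpins, 131 were highest in Pre-puber 14 of the 3 Pre-puber libraries, the library with the raised germ cell markers. Without Pre-puber 14, 32 of 203 tested were called (29.6% of all entries). Without Infant 31a, 31b or 30 the number was 40 of 207, 40 of 200 or 43 of 201 (34.1%, 36.2% and 39.9% of all entries), and without Pre-puber 3a it was 95 of 202 (63.3%), so the calls over all entries moved too. The hairpins that later rose to Adult summed to 389, 324 and 1058 CPM in libraries 3a, 3b and 14 of Pre-puber, beside 136 to 212 in Infant, 1820 to 2349 in Puber and 2601 to 4712 in Adult. The 2 that fell, 24_2784784 among them, both did so with no overlap. The libraries of 56 of the 182 (30.8%) did not overlap, against 40.9% of all entries. 1_2067736 was 2.91-fold higher (adjusted p = 0.0247), a call lost without any 1 of the 3 Infant libraries (adjusted p from 0.0615 to 0.0752), without Pre-puber 14 (0.225), under scaling over all entries (0.0623) and without the filter (0.0656).

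From Pre-puber to Puber 91 of 182 were called (50%, against 53.9% of all entries), 90 higher (49.5%, against 53%) and 1 lower (0.549%, against 0.894%). The libraries of Pre-puber and Puber were apart for 118 hairpins (64.8%, against 71.1% of all entries). X_5269294 was at 0.186, 0.125 and 4.33 CPM in Pre-puber and at 47.5, 62.3 and 64.3 in Puber, 37.4-fold higher (log2 5.23 ± 1.304, adjusted p = 0.013; log2 8.33 without Pre-puber 14). 29_3190083 was at 0.682, 0.624 and 21.5 CPM and then at 129, 127 and 86.1, 15.0-fold higher (log2 3.904 ± 1.17, adjusted p = 0.0205), a call lost without Pre-puber 3a (adjusted p = 0.0513), with log2 7.40 without Pre-puber 14. The rises of 9_5044670 (30.1-fold, adjusted p = 0.0312) and 21_2297470 (16.7-fold, adjusted p = 0.0449) were also lost without single libraries: the first without Pre-puber 3a or any 1 Puber library (adjusted p from 0.0521 to 0.0622), and the second without Pre-puber 3a, Pre-puber 3b or any 1 Puber library (0.0591 to 0.111). Their log2 folds were 11.69 and 9.46 without Pre-puber 14. The hairpin that fell was 12_478902, from 1.24, 0.374 and 1.55 CPM to 0.185, 0.198 and 0.351 (log2 fold -2.04 ± 0.78, adjusted p = 0.0434), lost without Pre-puber 3a, Pre-puber 14 or any 1 Puber library. The number called went from 29 of 202 tested without Pre-puber 3a (16.7% of all entries) to 134 of 203 without Pre-puber 14 (73.1%). It was 52 of 199, 47 of 205 and 42 of 203 without Pre-puber 3b, Puber 11 and Puber 19 (30.9%, 26.4% and 23.4% of all entries). With the libraries that share a title number summed, Pre-puber 3a and 3b among them, it was 42 of 198 (22.5% of all entries). Scaling over all entries turned the split to 33 higher and 43 lower of 190 tested (40.1% of all entries called), with 34 of the 91 called in both. The median of all entries moved from 2.72 to 0.73 (log2).

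Between Puber and Adult no unshared hairpin passed, nor did any of the 895 entries (0%). At an unadjusted p under 0.05 there were 11 (6.04%, against 49 of all 895 entries, 5.47%), and DESeq2 called 0. The libraries did not overlap for 23 hairpins (12.6%, against 15.4% of all entries), and the median log2 fold was 0.37. The 3 with the smallest p were 19_1680226 (1.67, 1.79 and 3.51 CPM in Puber against 0.65, 0, 0 and 0.149 in Adult, adjusted p = 0.52), 12_478902 (log2 2.32 ± 0.77, adjusted p = 0.539) and 15_965983 (26.5, 9.13 and 21.1 CPM in Puber against 6.06, 5.94, 3.67 and 8.65, adjusted p = 0.715). 15_965983 differed from most others in its course: it was at 0.235 to 0.623 CPM in Infant and already at 15.8, 19.9 and 15.99 in Pre-puber testis, 38.4-fold higher (log2 5.26 ± 0.80, adjusted p = 0.000275), with all 3 Pre-puber libraries alike, and at 0 in every Sperm library.

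Sperm and Adult testis were compared in a fit of their 8 libraries. Of 115 hairpins tested, 84 were called (73%, against 61.6% of all 766 entries tested), 51 higher in Sperm (44.3%, against 31.5%) and 33 lower (28.7%, against 30.2%), with a median log2 difference of 1.11, beside 0.26 over all entries. Of the 51, 22 were tested in this fit alone, and their way through the filter fixed their direction. Among the 93 tested in both fits, 29 were higher and 33 lower. These 93 had also passed the testis filter, and some passed this fit through Sperm or Adult alone. Whether the excess of higher calls is a trait of the hairpins thus cannot be told. The libraries did not overlap for 67 (58.3%), against 53.1% of all entries. With TMM factors computed within the 8 libraries alone the split was 64 higher and 23 lower of 120 tested (69.4% of all entries called). The median of all entries moved to 1.04.

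Among the higher ones, 4_3986438 had no Adult count and was at 119, 24.8, 97.9 and 31.2 CPM in Sperm, at least 501-fold higher (adjusted p = 8.70e-08). 6_4266980 was likewise at 0 in Adult and at 50.1, 6.32, 91.0 and 54.9 CPM in Sperm, at least 304-fold higher (adjusted p = 2.23e-07). Both had counts in Infant 30, at 1.88 and 0.938 CPM. 2_3474571 (253, 137, 86.3 and 59.2 CPM in Sperm) and 5_4176978 (64.6, 29.0, 68.8 and 38.8) had 1 count each in Adult, which gave ratios of 3386 (95% exact counting interval 606 to 133900) and 1054 (188 to 41790). 14_801184 was at 61.1, 83.2, 177 and 93.7 CPM in Sperm and had 3 counts in Adult, a ratio of 654 (222 to 3180, adjusted p = 4.92e-09). The hairpins named so far in this paragraph were tested in this fit alone and passed the filter through Sperm. Their direction was thus fixed in advance, and their adjusted p-values are no support for it. 1_2104817 was higher in Adult than in Infant and higher again in Sperm, where it was at 105, 106, 139 and 102 CPM, 9.91-fold above Adult (adjusted p = 4.85e-05).

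Among the lower ones were hairpins that had risen to Adult. X_5269294 was at 92.7, 24.5, 28.2 and 72.5 CPM in Adult and at 1.00, 1.05, 0 and 0 in Sperm, lower at log2 -6.29 ± 0.89 (78.4-fold, adjusted p = 2.05e-06). 12_477608 was lower at log2 -5.57 ± 0.86 (adjusted p = 7.34e-06; log2 -4.77 without Adult 20) and 10_163723 at log2 -5.17 ± 0.78 (adjusted p = 5.85e-06). 8_4976488 was at 201.6, 74.0, 60.5 and 58.1 CPM in Adult and at 14.5, 1.58, 3.50 and 3.23 in Sperm, lower at log2 -4.04 ± 0.75 (adjusted p = 7.81e-05), or log2 -3.42 without Adult 13 and -5.21 without Sperm 1. 5_4219382 was at 94.2, 43.9, 48.3 and 56.1 CPM in Adult and at 1.00, 10.0, 3.50 and 0 in Sperm, lower at log2 -3.97 ± 0.81 (adjusted p = 0.000202), or log2 -5.42 without Sperm 2. The hairpins named so far in this paragraph were low in Sperm and passed the filter through Adult. Their direction was thus fixed in advance, and their adjusted p-values are no support for it. In contrast, 9_5044670 and 21_2297470, also near 0 in Infant, were at 8.95 to 103 and 101.2 to 373 CPM in Sperm.

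Some unshared hairpins were counted in Sperm alone. Of the 383 with at least 20 counts in all, 33 had every count in Sperm and 57 had at least 90% there, while no hairpin had every count in any 1 testis group. The same was not counted over all entries, so whether these numbers are unusual cannot be told. Sperm was the shallowest group, and Infant, the deepest, had no count for 201 of the 383. Of the 33, 14 were counted in all 4 Sperm libraries and 5 in Sperm 4 alone. 11_218386 had 82, 78, 58 and 9 counts in Sperm 1 to 4. 17_1414520 had the most counts, 1348, all in Sperm 4. The median GC content of the 33 was 64.6%, against 54.5% over all 761, which include hairpins with fewer than 20 counts. Both named hairpins were chosen after their values were seen, and these counts are descriptions with no test.

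Folding energy and GC content are set beside the calls as a description across hairpins, which are not replicates. The 140 that rose from Infant to Adult had a median folding energy of -22.95 kcal/mol per 100 bases and a GC content of 44.6%, the 35 not called -40.0 and 55.9%, and the 7 that fell -45.25 and 57.4%. Infant had no count for 92 of the 182 tested, which passed the filter through later groups, and 91 of these were called higher, so their direction is no support. Among the 90 with an Infant count, the 49 that rose had a median of -26.2 and 43.3% GC, the 34 not called -40.1 and 57.4%, and the 7 that fell -45.25 and 57.4%. Hairpins with only a few Infant counts remain among these 90, and they too may have passed the filter through later groups. Under 50% GC, 99 of 110 rose with a median of -19.3, the 10 not called were at -29.1 and the 1 that fell at -24.85. At 50% GC or more, 41 of 72 rose with a median of -33.8, the 25 not called were at -41.9 and the 6 that fell at -46.6. In both GC classes the hairpins that rose had weaker predicted folds, at the median, than those not called. Both classes were taken over all 182 tested, with the 92 that had no Infant count among them. They were not split by Infant count, so they give no support apart from those 92.

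**Figure D4:**
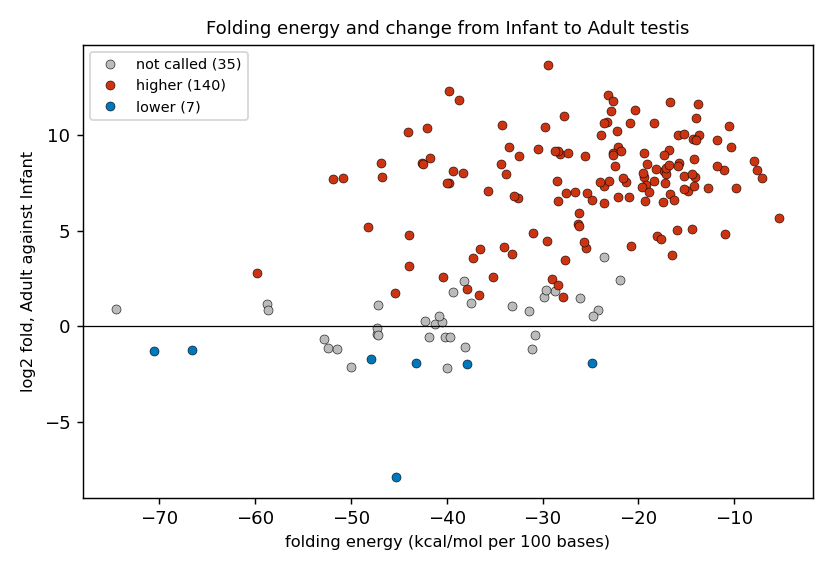
Each point is 1 of the 182 unshared hairpins tested: predicted folding energy in kcal/mol per 100 bases (a more negative value is a firmer fold) against the fitted log2 fold change of Adult against Infant. Hairpins that rose have a median of -22.95 and those not called -40.0; folds of the 92 hairpins with no Infant count depend on the prior count of the fit.

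Between Sperm and Adult, the GC content depended on which hairpins passed the filter. Of the 115 tested, 22 were tested in this fit alone, with a median GC content of 66.1%, and all 22 were called higher in Sperm, a direction that their way through the filter fixed. Among the 93 tested in both fits, the 29 higher in Sperm had a median GC content of 47.1%, the 31 not called 48.5% and the 33 lower 41.5%. The hairpins higher in Sperm thus had no higher median GC content than those not called once the 22 were set apart. The median folding energies of the 29, 31 and 33 were -33.5, -27.5 and -20.3 kcal/mol per 100 bases.

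Few unshared hairpins lay close together. There were 14 pairs within 10000 bases, and in 5 of them the hairpins overlapped on opposite strands, where the letters as written differ but the genome stretch is the same. One such pair is shown, 7_4602773 on the minus strand at chr7:3665484-3665545 and 7_4473712 on the plus strand at chr7:3665488-3665543.

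7_4602773: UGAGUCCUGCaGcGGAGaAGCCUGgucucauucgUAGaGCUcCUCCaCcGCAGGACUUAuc
7_4473712: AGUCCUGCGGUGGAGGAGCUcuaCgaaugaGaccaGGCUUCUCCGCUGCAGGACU

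The minus-strand hairpin 7_4602773 was at 6.85, 8.08 and 7.86 CPM in Infant, 7.19, 5.37 and 6.33 in Pre-puber testis, 6.67, 2.98 and 1.93 in Puber, 1.95, 0.792, 3.15 and 2.98 in Adult and 0, 0, 2.33 and 1.08 in Sperm. Adult was lower than Infant at log2 -1.73 ± 0.62 (adjusted p = 0.0175), a call lost with no filter on low counts (adjusted p = 0.0508). The plus-strand hairpin 7_4473712 was at 0 in 9 of the 13 testis libraries and at most at 0.525 CPM, and at 20.0, 7.90, 19.8 and 14.0 in Sperm. Its 85 Sperm counts stood against 6 in Adult, 51.0-fold in the fit (log2 5.67 ± 0.74, adjusted p = 6.88e-07; log2 6.37 without Adult 33). 7_4473712 was tested in the fit of Sperm and Adult alone, so its direction was fixed by the filter. 24_2720473 had an antisense partner too, 24_2788920, with 443 counts in all against 28620. The partner had its highest mean in Puber (18.5, 9.72 and 5.62 CPM), and was at 1.503, 1.05, 0 and 2.15 CPM in Sperm, where 24_2720473 was highest. Whether counting used the strand is not given in the sources used here.

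A pair on the same strand of chromosome 24 lay 903 bases apart, in the order 24_2714555 and 24_2714559. The letters of 24_2714559 are taken to be those known in other mammals as miR-323b (from general knowledge, not compared with a reference). In those mammals miR-323b is one of the miRNAs of the imprinted DLK1-DIO3 region. 24_2714559 ranged from 25.02 CPM in Puber 10 to 385 in Adult 4 over testis, with overlap between all stages, and passed in no stage comparison. Against Adult it was lower in Sperm at log2 -1.52 ± 0.58 (adjusted p = 0.0258), with overlap, and the call was lost without Adult 13, Adult 4, Sperm 1 or Sperm 2 (adjusted p from 0.0567 to 0.122) and with TMM factors computed within each fit (0.121). 24_2714555 was at 1.44 to 5.35 CPM in testis, passed in no stage comparison, and was not tested in Sperm, where it reached 1.08 CPM.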

How the data were processed

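Counts per entry were made and deposited by the authors in 1 table, beside RPM values that the authors computed and that matched the count over the library total within 0.005. Trimmomatic and EquCab3.0 are named in the submitters' processing notes; the aligner, the counter and its use of strand are not given in the sources used here. A predicted hairpin listed more than once was taken at its highest-summed row. The members and lists were chosen with earlier results of these data known.

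Library sizes and TMM factors came from the annotated miRNAs, over all 17 libraries. Annotated and predicted entries were fitted as 1 table with edgeR 4.0.16 (R 4.3.3, quasi-likelihood F test, filterByExpr by group), with 13 testis libraries in one fit and Sperm with Adult in another, and p-values were adjusted by Benjamini-Hochberg over all entries tested. The SE of a log2 fold is its size over the square root of F, an approximation. The scripts were tested on simulated counts. Folding used ViennaRNA 2.7.2. Every column of the table with values per sample was used.

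Named hairpins were the 10 with the highest mean of group means, in each comparison up to 6 rises and 6 falls that passed with at least 50 CPM in a group and no overlap, the 6 smallest p over the stages, tested hairpins within 10000 bases of each other, and the 3 smallest p where nothing passed; 2 of these are not reported here, and others are said to be chosen after their values were seen. The alternatives were other size factors, scaling over all entries, predicted hairpins fitted alone, no filter, DESeq2 1.42.0, libraries that share a title number summed, each library left out, the rule read on both strands and, chosen after seeing the data, TMM within each fit.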

Additional observations from a re-analysis of the deposited data

Results flagged for a closer look

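Of 83 groups of 4 libraries checked, 8 had a library far from the other 3 by Dixon's test at 0.829, and chance flags about 1 in 20 groups. That rate does not hold for 3 of the 8 (2_3474571, 5_4176978 and 17_1414520), where the other 3 libraries are all at 0, and 17_1414520 was chosen for its pattern. In Adult, 29_3211085 was at 286.6 CPM in Adult 4 against 11.5 to 25.6 in the others, and 8_4976488 was at 201.6 CPM in Adult 13 against 58.1 to 74.0. A pair of Sperm hairpins had their only Adult count in 1 library, 2_3474571 in Adult 4 (0.1491 CPM) and 5_4176978 in Adult 33 (0.1313 CPM). In Sperm, 8_4976488 was at 14.52 CPM in Sperm 1 against 1.58 to 3.50, and 1_2104817 was at 138.8 CPM in Sperm 3 against 102.3 to 106.4. Adult 20, the shallowest Adult library, had 145 hairpins with at least 5 counts, against 206 to 208 in the other Adult libraries. 17_1414520 had 1348 counts in Sperm 4 and none in any other library.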

How the results depend on the processing

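With 1 library left out, calls over the stages ranged from 138 of 174 tested to 166 of 203 (82.8% and 86.6% of all entries). For Pre-puber against Infant they ranged from 32 of 203 to 95 of 202 (29.6% and 63.3% of all entries). Puber against Pre-puber had 29 of 202 to 134 of 203 (16.7% and 73.1%). Adult against Infant had 138 of 174 to 159 of 201 (83.4% and 83.6%). Sperm against Adult had 88 of 134 to 107 of 147 (57.7% and 65.8%). Calls stayed at 0 for Adult against Puber, as over all entries. Summing libraries that share a title number left 42 calls of 198 tested for Puber against Pre-puber (22.5% of all entries). Without the filter Sperm against Adult had 255 of 624 (46% of all entries), with more hairpins tested. Scaling over all entries turned 3 named hairpins from higher to lower in Adult against Infant, 24_2720473 (-1.34), 1_2067736 (-1.01) and X_5208977 (-0.69). 9_5044670 had a log2 fold of 0 in Pre-puber against Infant without Pre-puber 14 and 6.78 to 7.37 without any 1 of the others. Over the named hairpins, 1501 recomputed values kept direction and call, 130 kept the direction but lost the call and 4 turned; the cause was not tested. No paired analysis was possible because the groups compared share at most 1 replicate number, number 4 of Adult and Sperm. Sperm libraries were the shallowest, which limits hairpins with few counts there, and 557 of the 761 hairpins were too low to test.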
